A study of Arabidopsis thaliana with 4 samples.

Results

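The genes described here are 7 nuclear genes of Arabidopsis thaliana whose proteins work in the chloroplast: LHCB4.1 (AT5G01530), LHCB4.2 (AT3G08940), PSBY (AT1G67740), RCA (AT2G39730), PORB (AT4G27440), TRXF2 (AT5G16400) and CHL (AT3G47860). They were selected on the signals of these same 4 arrays and then taken by name, as the 1 probe set each that the probe-to-gene table gives them, out of 13356 genes with a single name. Because measured values guided the choice, the values of the 7 genes in the comparisons below are a description and carry no test. CHL stands for chloroplastic lipocalin, so despite its symbol this gene belongs with chloroplast protection and not with chlorophyll synthesis.

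Transcripts were measured in shoot apices with leaf primordia of soil-grown plants of the Col-0 background, 14 days old, kept in 16 hours of light and 8 hours of dark. There was 1 array for each of 4 genotypes, namely wild type, the mutants as1-1 and as2-1, and AS2 overexpressing plants, called the overexpressing line below. All 4 groups share background, age and light regime. The promoter that drives AS2 in the overexpressing line, the number of plants pooled and the hour of harvest are not given in the sources used here, and free text of the samples that speaks of embryos goes against the tissue label. AS1 is a MYB transcription factor and AS2 an LBD-family nuclear protein with which it forms a complex in young leaves, and the study looked for genes regulated by the pair.

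In the chloroplast, antenna proteins bind chlorophyll and pass light energy to the photosystems, whose electron transport feeds the Calvin cycle of carbon fixation. The nuclear genome encodes the antenna proteins, many photosystem subunits, the regulators of carbon fixation enzymes and all enzymes of chlorophyll synthesis, and the proteins are imported into the plastid. In a shoot apex, transcripts of these genes build up as cells leave the meristem and the plastids of the young leaf become green.

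Signals below are on a linear scale after each array was set to a common level, and every one of the 7 genes lay above the floor of 42.9 on all 4 arrays. Differences are given on the log2 scale, where a difference of 1 in size is 2-fold, and a gene was called higher or lower from 2-fold upwards. With 1 array per genotype no value has an error. As a yardstick only, the robust spread of log2 differences over the 6822 genes that cleared the floor on each array was 0.37 for as1-1 against wild type, 0.39 for as2-1, 0.34 for the overexpressing line and 0.27 between the mutants. The highest signal on the wild type array as deposited was 17878.2, against 12194.6 to 13168.8 on the others. Over the 515 genes with a mean signal of at least 1000 the median log2 difference from wild type was -0.10 in as1-1, -0.04 in as2-1 and -0.001 in the overexpressing line. In such bulk tissue, fewer cells of a type and less RNA per cell cannot be told apart.

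Of the 7 genes, 6 had lower signals in both mutants than in wild type and in the overexpressing line, and CHL had higher ones. In as1-1, 2 of the 7 were called lower than wild type, where 1.45% of all 7745 genes measured were. In as2-1, 4 of the 7 were called lower, beside 1.78% of 7753 genes. In the overexpressing line 0 of the 7 were called in either direction, beside 1.92% of 7749 genes. The rule used these contrasts, and nothing is read from the counts. The median log2 difference of the 7 genes was -0.86 in as1-1, -1.09 in as2-1 and -0.42 in the overexpressing line, with medians over all genes of -0.03, -0.04 and -0.02. These comparisons share the single wild type array.

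**Figure D1:**
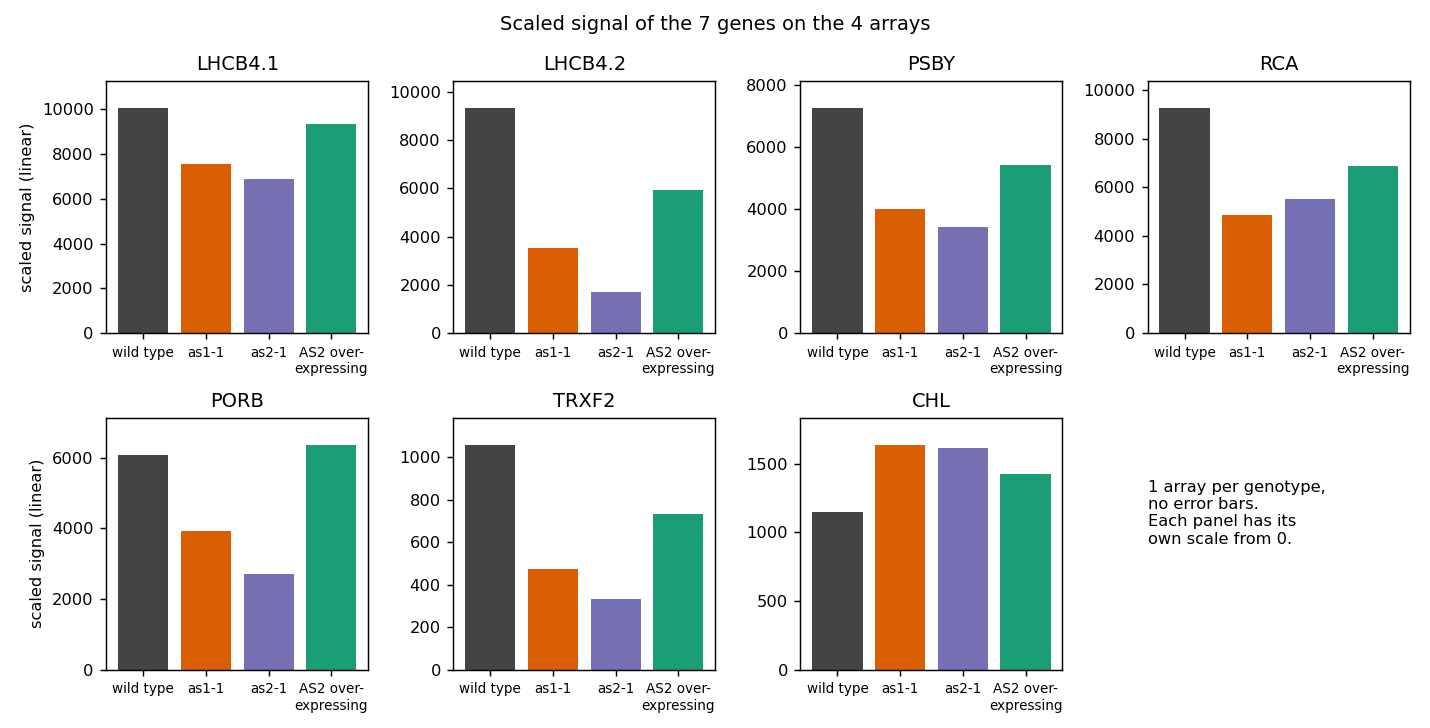
Scaled linear signal (y axis, from 0, a scale of its own in each panel) of the 7 genes for wild type, as1-1, as2-1 and the overexpressing line, 1 bar per array and no error bars. The as2-1 bar is the lowest for LHCB4.1, LHCB4.2, PSBY, PORB and TRXF2, the as1-1 bar is the lowest for RCA, and the wild type bar is the lowest for CHL.

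LHCB4.2 and LHCB4.1 encode isoforms of CP29, a minor antenna protein that sits between the photosystem II core and the main antenna. LHCB4.2 had a signal of 9331 in wild type, 3527 in as1-1, 1709 in as2-1 and 5951 in the overexpressing line. It was thus 2.65-fold lower in as1-1 and 5.46-fold lower in as2-1, and 1.57-fold lower, under the calling threshold, in the overexpressing line. It was also the 1 gene of the 7 that differed at least 2-fold between the mutants, at 2.06-fold higher in as1-1 than in as2-1, where 0.424% of 7541 genes were that much higher in as1-1.

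LHCB4.1 had signals of 10058 in wild type, 7578 in as1-1, 6870 in as2-1 and 9355 in the overexpressing line. Its log2 differences from wild type were -0.41 in as1-1, -0.55 in as2-1 and -0.10 in the overexpressing line, all under 2-fold. Over 6 ways of scaling the arrays, the as1-1 difference ran from -0.41 to -0.05 and the as2-1 difference from -0.55 to -0.25. The order of the arrays was the same as for LHCB4.2, over a much narrower range. The value in the overexpressing line turned to 0.01 with centring on all probe sets, 0.02 with loess and 0.28 after quantile normalization, so it has no settled direction.

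The ratio of the LHCB4.2 signal to the LHCB4.1 signal within an array does not change when a whole array is rescaled. Taken as a percentage of its value in wild type, this ratio was 50.2% in as1-1, 26.8% in as2-1 and 68.6% in the overexpressing line. The isoform genes therefore differed unequally from wild type on all 3 arrays. LHCB4.3 (AT2G40100), the remaining gene of the family and no member of the 7, lay on the other side of wild type. Its signal was 97.2 in wild type, 119.0 in as1-1, 135.3 in as2-1 and 126.9 in the overexpressing line, at log2 differences of 0.29, 0.48 and 0.38, all under 2-fold. How far the probe sets of these related genes share transcripts was not tested.

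PSBY encodes a small membrane protein of photosystem II. Its signal was 7243 in wild type, 3997 in as1-1, 3400 in as2-1 and 5420 in the overexpressing line. It stood 1.81-fold lower in as1-1, 2.13-fold lower in as2-1 and 1.34-fold lower in the overexpressing line. Its call in as2-1 was lost with loess (log2 difference -0.97) and quantile normalization (-0.92).

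Other genes of photosystem II and photosystem I came from lists of 252 symbols in 10 roles, of which 35 genes were on the array under a single name, the 7 among them. PSB27, a lumenal protein of photosystem II assembly and repair, was at 5619 in wild type, 2886 in as1-1, 2693 in as2-1 and 4386 in the overexpressing line. It was 1.95-fold lower in as1-1 and 2.09-fold lower in as2-1. PSBW, a small subunit of photosystem II, stayed within 1.46-fold of wild type in as2-1, and LPA2, which takes part in photosystem II assembly, within 1.38-fold. LPA1, another assembly factor, was the closest to wild type in the mutants, at -0.17 (as1-1) and -0.01 (as2-1) on the log2 scale, and was at 0.37 in the overexpressing line. For photosystem I, PSAN differed by -0.87 in as1-1, by -0.93 in as2-1 and by -0.39 in the overexpressing line. PSAE-1 had -0.39, -0.56 and -0.39, so its signal in the overexpressing line was as low as in as1-1.

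The next genes came from the role list of electron transport and ATP synthase. HCF101, needed for iron-sulfur clusters of photosystem I, was at 1068 in wild type, 591 in as1-1, 590 in as2-1 and 981 in the overexpressing line. The mutants lay together and well below the other arrays, at 1.81-fold under wild type in each. ATPC1, the gamma subunit of the plastid ATP synthase, had log2 differences of -0.34 and -0.28 in as1-1 and as2-1 and of 0.02 in the overexpressing line. PGRL1B, a protein of cyclic electron flow, had -0.54, -0.32 and 0.17.

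RCA encodes Rubisco activase, which frees the carbon-fixing enzyme of bound sugar phosphates. Its signal was 9266 in wild type, 4881 in as1-1, 5529 in as2-1 and 6875 in the overexpressing line. It was 1.90-fold lower in as1-1, 1.68-fold lower in as2-1 and 1.35-fold lower in the overexpressing line, all under the calling threshold. RCA was the 1 gene among the 6 lower ones that was lowest in as1-1, though its log2 difference of -0.18 between as1-1 and as2-1 was smaller than the spread of 0.27 over genes.

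The Calvin cycle genes SBPASE and PRK were also lowest in as1-1. SBPASE, sedoheptulose-bisphosphatase, was at 3337 in wild type, 1923 in as1-1, 2179 in as2-1 and 2885 in the overexpressing line. PRK, phosphoribulokinase, was at 3725, 2408, 2995 and 3773 on the same arrays. TPI, which at this locus is the cytosolic triosephosphate isomerase and no chloroplast enzyme, was at 3914, 3415, 4137 and 3658, within 1.15-fold of wild type everywhere. Of the 3, none was called in any comparison with wild type.

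PORB encodes a protochlorophyllide oxidoreductase, the light-dependent enzyme near the end of chlorophyll synthesis. Its signal was 6081 in wild type, 3933 in as1-1, 2701 in as2-1 and 6367 in the overexpressing line. It was 1.55-fold lower in as1-1 and 2.25-fold lower in as2-1, and in the overexpressing line its log2 difference of 0.07 put it next to wild type. The overexpressing line and as2-1 stood 2.36-fold apart. In as2-1 the call was lost after quantile normalization, at a log2 difference of -0.999.

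The 7 other chlorophyll synthesis genes found under a single name covered steps from glutamate to the magnesium porphyrins. At the first steps, HEMA2 (glutamyl-tRNA reductase) differed by -0.35 in as1-1 and by -0.17 in as2-1 on the log2 scale. GSA1 (glutamate-1-semialdehyde aminotransferase) had -0.03 and 0.68, with signals of 940 in wild type, 919.5 in as1-1, 1505 in as2-1 and 1336 in the overexpressing line. GSA1 was thus the chlorophyll synthesis gene that stood above wild type in as2-1, at 1.60-fold. HEMB1 (aminolevulinate dehydratase) had -0.42 in as1-1 and -0.15 in as2-1.

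At the middle steps, HEME1 and HEME2, both uroporphyrinogen decarboxylases, had log2 differences of -0.58 and -0.92 in as1-1 and of -0.28 and -0.54 in as2-1. At the magnesium steps, CHLI2, a subunit of magnesium chelatase, was at 852 in wild type, 469.0 in as1-1, 394.8 in as2-1 and 873 in the overexpressing line. It was 1.82-fold lower in as1-1 and 2.16-fold lower in as2-1, and within 1.02-fold of wild type in the overexpressing line. CHLM, the magnesium protoporphyrin methyltransferase, was 1.75-fold lower in as1-1, 1.89-fold lower in as2-1 and 1.35-fold lower in the overexpressing line.

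In as2-1 the 3 genes of the latest steps, CHLI2, CHLM and PORB, lay between -1.17 and -0.92 on the log2 scale, and the 5 genes of earlier steps between -0.54 and 0.68. In as1-1 all 8 genes lay between -0.92 and -0.03. The split into earlier and later steps was not set in advance, and PORB was selected on the signals of these arrays. Without PORB, the later steps are CHLI2 and CHLM alone, so no trend along the pathway is read from them. The ratio of the PORB to the GSA1 signal within an array, a pair chosen after the values were seen, was 66.1% of its wild type value in as1-1, 27.7% in as2-1 and 73.7% in the overexpressing line. NOL, a chlorophyll b reductase of chlorophyll breakdown, was the 1 gene of its list found under a single name. It differed by -0.52 in as1-1 and by -0.04 in as2-1.

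**Figure D2:**
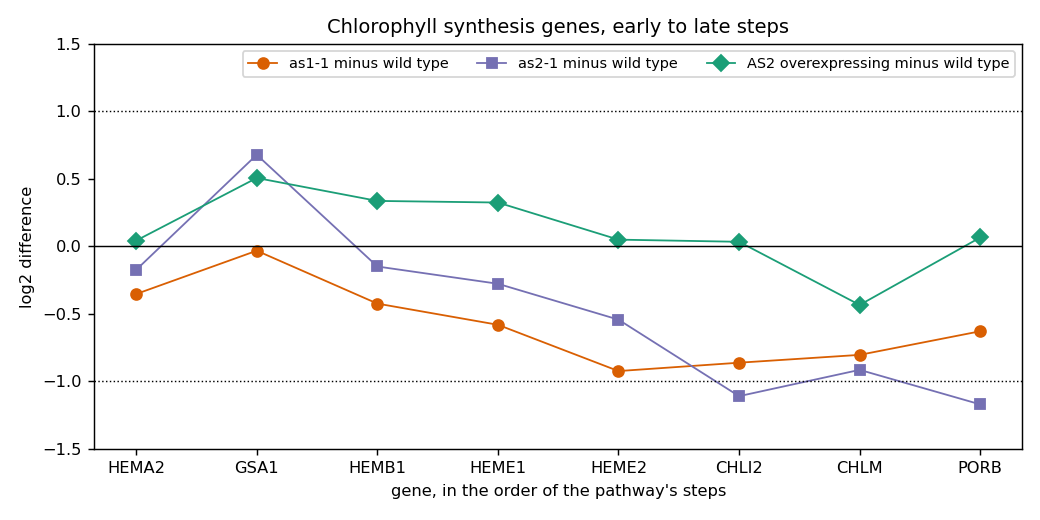
Log2 difference from wild type (y axis; dotted lines at 2-fold) of the 8 chlorophyll synthesis genes, ordered along the pathway from left to right, with 1 line for each of as1-1, as2-1 and the overexpressing line. HEME1 and HEME2 act at the same step; GSA1 stands at 0.68 in as2-1, CHLI2 and PORB there lie below -1, and the overexpressing line stays between -0.43 and 0.51.

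TRXF2 encodes thioredoxin f2, which passes reducing power from ferredoxin to Calvin cycle enzymes in the light. Its signal was 1058 in wild type, 475.1 in as1-1, 331.9 in as2-1 and 734 in the overexpressing line. TRXF2 was 2.23-fold lower in as1-1, 3.19-fold lower in as2-1 and 1.44-fold lower in the overexpressing line. With LHCB4.2 it was the gene called in both mutants, and its log2 difference held between -1.16 and -1.09 in as1-1 and between -1.67 and -1.61 in as2-1 over 6 ways of scaling the arrays.

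The other plastid redox genes differed in direction. ATHM2, which encodes thioredoxin m2, stood above wild type on all 3 arrays, at 2302 in wild type, 2559 in as1-1, 2826 in as2-1 and 3171 in the overexpressing line, all under 2-fold. THX, thioredoxin x, differed by -0.62 in as1-1, by -0.51 in as2-1 and by 0.15 in the overexpressing line. NTRC, a plastid NADPH-thioredoxin reductase, had -0.81, -0.36 and -0.21. The ratio of the TRXF2 to the ATHM2 signal, again a pair chosen after the values were seen, was 40.4% of its wild type value in as1-1, 25.6% in as2-1 and 50.4% in the overexpressing line.

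CHL, the chloroplastic lipocalin, is a lumenal protein that protects thylakoid lipids under stress. Its signal was 1150 in wild type, 1640 in as1-1, 1613 in as2-1 and 1426 in the overexpressing line. CHL was above wild type by 0.51 in as1-1, 0.49 in as2-1 and 0.31 in the overexpressing line on the log2 scale, all under 2-fold. The mutants differed from each other by 0.02 on the log2 scale. TIL, the temperature-induced lipocalin outside the chloroplast, lay on the other side, at 1628 in wild type, 1194 in as1-1, 812 in as2-1 and 1205 in the overexpressing line. TIL was at a log2 difference of -1.003 in as2-1, at the very edge of the call. LIL3:1 and LIL3:2, light-harvesting-like proteins that bind chlorophyll intermediates, had -0.64 and -0.41 in as1-1 and -0.36 and -0.08 in as2-1.

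The 28 genes of the role lists that are not among the 7 were then counted over all roles, and 27 of them could be measured. The 27 include TPI and TIL, whose proteins work outside the chloroplast. HYH, a bZIP factor of light signalling and the 1 regulator found under a single name, lay below the floor on all 4 arrays and gave no difference. In as1-1, 0 of 27 were called, where 2.87% of all genes were called in either direction. A negative difference stood at 25 of the 27 (92.6%), beside 53.7% of all genes and 61.4% of those with a mean signal of at least 1000, and the median was -0.52 against -0.03 over all genes. In as2-1, 3 of 27 were at least 2-fold lower (PSB27, CHLI2 and TIL), beside 1.78% of all genes. A negative difference stood at 23 of the 27 (85.2%), beside 54.9% of all genes, and the median was -0.36 against -0.04. In the overexpressing line, 0 of 27 were called, beside 1.92% of all genes. A negative difference stood at 11 of the 27 (40.7%), beside 52.8% of all genes, and the median was 0.03 against -0.02. With quantile normalization, loess or centring on all probe sets the count in as2-1 was 1, CHLI2. The median in as1-1 stayed between -0.53 and -0.46, and that in as2-1 between -0.36 and -0.28, over 9 ways of scaling and flooring.

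**Figure D3:**
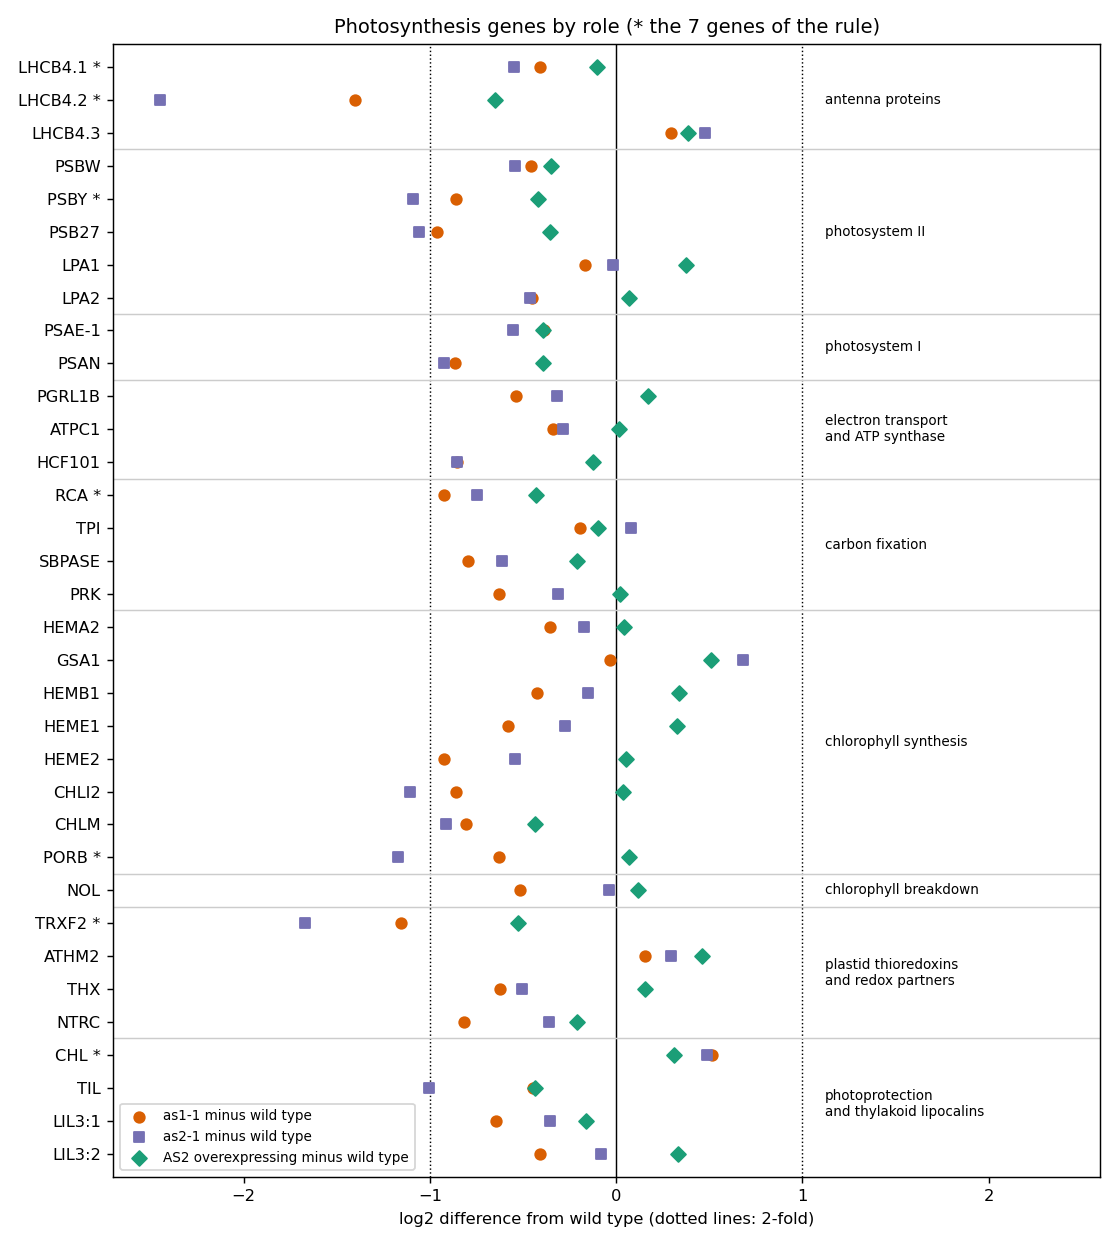
Log2 difference from wild type (x axis; dotted lines at 2-fold) of 34 genes in 9 roles (rows), for as1-1 (circles), as2-1 (squares) and the overexpressing line (diamonds), 1 array each; stars mark the 7 genes. LHCB4.2 in as2-1 at -2.45 lies farthest from wild type, and LHCB4.3, ATHM2 and CHL are to the right of wild type on all 3 arrays.

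**Figure D4:**
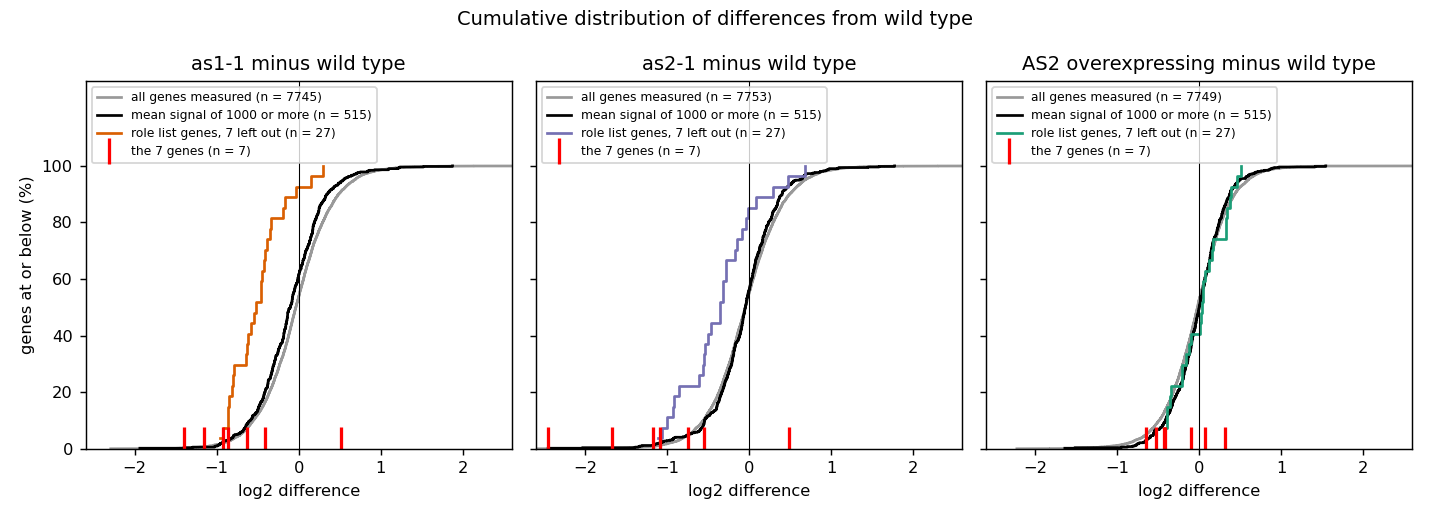
Percentage of genes (y axis) at or below each log2 difference from wild type (x axis) in as1-1, as2-1 and the overexpressing line, for all genes measured, for the 515 genes with a mean signal of at least 1000 and for the 27 role list genes without the 7, whose own values are the red ticks. At its median the curve of the 27 genes lies left of the others in both mutants, at -0.52 and -0.36, and near them in the overexpressing line, at 0.03. In the lowest tail it does not lie left in the mutants. The lowest of the 27 genes is at -0.96 in as1-1 and -1.11 in as2-1, while all genes reach -2.29 and -2.57.

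The level on all 4 arrays was also compared. Signals in both mutants lay below those of both other arrays for 22 of the 27 genes and above them for 0, where 26.1% of 6822 genes, those above the floor throughout, had the first order and 20.7% the reverse. Over the ways of scaling and flooring this count ran from 19 to 22 while the share over all genes ran from 19.9% to 28.7%. No share of this order was taken among the 515 genes with a mean signal of at least 1000. Of these, 33.0% lay lower in the overexpressing line than in as1-1, beside 48.0% of all genes. Against as2-1 the shares were 42.3% and 46.7%. The contrast with all genes is therefore not one at a like signal level. The lowest array was as1-1 for 16 of the 27 genes (59.3%) and as2-1 for 9 (33.3%), beside 24.9% and 25.7% of the 6822 genes. For the 7 genes it was as2-1 for 5 and as1-1 for 1. The genes are not independent of each other, each order rests on 4 single arrays, and neighbours in it often lay closer than the spread over genes.

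The overexpressing line was also set directly against the mutants. Against as2-1, LHCB4.2 was 3.48-fold, PORB 2.36-fold and TRXF2 2.21-fold higher in the overexpressing line. These were 3 of the 7 genes, beside 1.04% of 7597 genes. PSBY was 1.59-fold, LHCB4.1 1.36-fold and RCA 1.24-fold higher, and CHL was 1.13-fold lower. Against as1-1, 0 of the 7 genes were called, beside 2.93% of 7605 genes, and LHCB4.2 came nearest to the threshold at 1.69-fold higher in the overexpressing line. These comparisons do not use the wild type array, and they share the AS2 overexpressing array with each other. The 7 genes were selected on the signals of these arrays too, so nothing is read from these counts either.

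**Figure D5:**
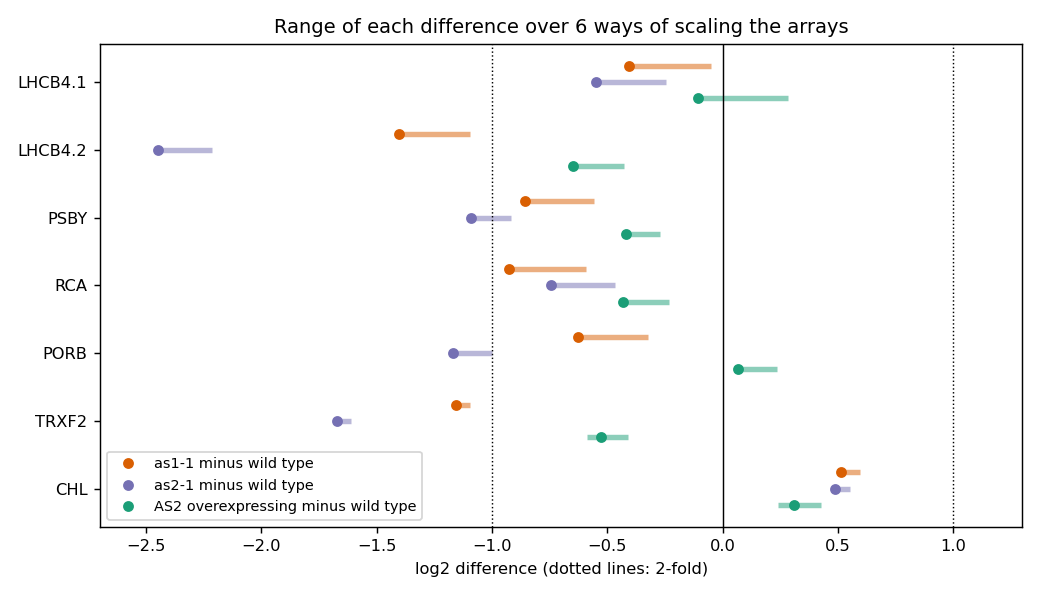
Log2 difference from wild type (x axis; dotted lines at 2-fold) of the 7 genes (rows) in as1-1, as2-1 and the overexpressing line; points give the value as reported and bars the range over 6 ways of scaling the arrays. The bar of LHCB4.1 in the overexpressing line crosses 0, and those of PSBY and PORB in as2-1 cross the 2-fold line, while LHCB4.2 and TRXF2 stay beyond it in both mutants.

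Genes whose profile over the 4 arrays lay closest to that of LHCB4.2, by the root mean square distance of log2 signals centred per gene, were AT3G28220 (0.17), AT2G29670 (0.17), AT2G36200 (0.20), AT5G56100 (0.22) and AT1G73480 (0.30), against a median distance of 0.91 over 6815 genes. AT3G28220 was at 672 in wild type, 295.2 in as1-1, 113.2 in as2-1 and 366.1 in the overexpressing line. Closest to the median profile of the 7 genes were AT3G19680 (0.03), AT3G51280 (0.03), NET3C (0.04), AT4G10330 (0.04) and AT1G70820 (0.05), against a median of 0.41. None of these 10 genes was in a role list, and 4 points per gene leave room for many close profiles.

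The genes of the plastid genome, which encode the partner subunits of the same complexes, were compared with the nuclear genes. Of 69 such genes, 1 was called in as1-1, beside 2.87% of all genes. This was ndhF, of the plastid NDH complex, whose as1-1 signal of 310.1 lay 2.88-fold above the 107.5 of wild type; it is named after its value was seen. In as2-1 and in the overexpressing line 0 of the 69 were called, beside 3.28% and 1.92% of all genes. Their median log2 differences from wild type were -0.24 in as1-1, -0.16 in as2-1 and -0.28 in the overexpressing line. These medians have no settled order, since that of as1-1 was the lowest with centring on all probe sets, at -0.19 against -0.16 in the overexpressing line. Signals in both mutants lay below both other arrays for 10 of the 69 (14.5%) and above them for 11 (15.9%), beside 26.1% and 20.7% of all genes. The difference between the groups of genes was not tested. How well the cRNA labelling captures transcripts of the plastid genome was not tested either, so these signals may not follow plastid transcript levels. In wild type rbcL was at 489.4 and psbA at 656.1, against 7030.5 for matK.

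Clock-linked genes and cell type markers were looked at beside these values. GI, a clock gene, was at 609 in wild type, 605.0 in as1-1, 181.8 in as2-1 and 653 in the overexpressing line. For GI, as2-1 thus stood apart from the other 3 arrays, and as1-1 lay next to wild type. The lowest array was as2-1 for 5 of the 7 genes, which were selected on these arrays. Among the 27 other role list genes it was as1-1 for 16 and as2-1 for 9. COR27, linked to the clock and to cold, was at 135.6 in wild type and at 936 in as1-1, 669 in as2-1 and 941 in the overexpressing line. GI had the order of PORB over the 4 arrays, with as1-1 at a log2 difference of -0.01 from wild type. COR27 had the order of none of the 7 genes. Transcripts of antenna genes are known to follow the time of day, and the part of clock state or harvest time in these results was not tested. Of 65 marker symbols of other cell types, 5 genes were found on the array under a single name. For the stomatal lineage, SPCH, MUTE and FMA had summed signals of 332.4 in wild type, 277.5 in as1-1, 320.8 in as2-1 and 299.3 in the overexpressing line. The meristem gene CLV3, the 1 meristem marker found under a single name, and TRY, a trichome regulator, lay below the floor on all arrays. The shoot apex label thus could not be checked on meristem markers. Probe sets with no gene name or with several were not searched for other markers. The part of tissue make-up in these results was not tested.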

How the data were processed

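Signal intensities per probe set on 4 Affymetrix arrays, 1 per genotype, were deposited by the authors. Biotin-labelled cRNA was made by the array maker's protocol, per the labels' protocols, while the software behind the signals is not given in the sources used here. Mean signals after dropping 2% of probe sets at each end were 198.4 to 198.5, as after scaling to a common level. Of 22746 probe sets, 13513 had 1 gene name, 503 several and 8730 none, and 13436 matched a locus of the RefSeq table of TAIR10.1, used for names only. The brightest probe set stood for each of 13356 genes.

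Signals were put on the log2 scale (0 set to 0.1). Arrays were brought to a common median, taken over the brighter part of the probe sets (mean signal no lower than the median one). The floor, 42.9, was the 40th percentile of the scaled signals, and lower values were raised to it. A gene below it on both arrays gave no difference. Groups came from the genotype labels. With 1 array per genotype no test was run, and the number of arrays limits the precision. Scaling and calling were tested on simulated data.

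The 7 genes, role lists and marker lists were chosen with earlier results of these data known. All 7 genes, every role list gene with a single name on the array and the 5 nearest profiles were named. GI, COR27 and the ratios within arrays were added after values were seen. The split of the chlorophyll synthesis genes into earlier and later steps was not set in advance. Symbols that fit several loci were left out. Alternatives were other centring, quantile normalization, loess, floors at the 25th and 60th percentile or none, the mean over probe sets and a 1.5-fold threshold. Sequences were not used here. Python 3.11.15, pandas 2.3.3 and statsmodels 0.14.6 were used.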

Additional observations from a re-analysis of the deposited data

How the results depend on the processing

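Over 10 alternatives, 79 of 90 counts of called genes stayed within 1.5 times the reported count. For the 7 genes, the alternative floors and the mean over probe sets could not change a count, as each has 1 probe set above every floor. Those agreements were fixed in advance and are no sign of stability. Over the 5 alternative scalings, 204 of 210 differences of the 7 genes kept their direction and their side of 2-fold; the 3 alternative floors changed 0 of their differences, since all 7 lie above each floor, and say nothing about stability. The 2-fold calls of LHCB4.2 and TRXF2 held in both mutants under every scaling run, with log2 differences of LHCB4.2 between -1.40 and -1.09 in as1-1 and between -2.45 and -2.21 in as2-1. With quantile normalization, 2 in place of 4 of the 7 genes were called in as2-1, PORB (-0.999) and PSBY (-0.92) being lost, and PSBY was also lost with loess (-0.97). LHCB4.1 in the overexpressing line reversed against wild type, from -0.10 to 0.012 with centring on all probe sets, 0.283 with quantile normalization and 0.025 with loess. Centring on all probe sets raised the median difference of that line from wild type by 0.117 over genes above the floor. Among the other role list genes, 1 in place of 3 was called in as2-1 with centring on all probe sets, with quantile normalization and with loess. With no floor, 1 in place of 0 was called in as1-1 and 1 in place of 0 in the overexpressing line, in both HYH, which lies below the floor. A 1.5-fold threshold, under which more genes can pass by construction, gave 5 of the 7 genes in as1-1, 1 in the overexpressing line, 3 for that line against as1-1, and 11 and 8 of the other role list genes in as1-1 and as2-1; 15.82%, 12.01%, 14.96% and 16.33% of all genes then passed in as1-1, the overexpressing line, that line against as1-1, and as2-1. The cause of the other shifts was not tested. Centring on bright probe sets was chosen after seeing the data. No paired analysis was possible because each genotype has 1 array, and none could be left out.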

Other observations

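Another 9 nuclear genes with thylakoid or plastid thioredoxin names were listed after values had been seen, so they describe the arrays only. In the comparisons of as1-1, as2-1 and the overexpressing plants with wild type 0 of the 9 were called, beside 2.87%, 3.28% and 1.92% of all genes, and their median log2 differences were -0.39 in as1-1, -0.27 in as2-1 and -0.12 in the overexpressing plants. TROL, a thylakoid protein that anchors ferredoxin-NADP reductase, was at 1726 in wild type, 888 in as1-1, 1215 in as2-1 and 1621 in the overexpressing line, 1.94-fold lower in as1-1. CURT1C (AT1G52220), of the family that curves thylakoid membranes, was at 2176, 1511, 1336 and 1938 on the same arrays. CURT1D (AT4G38100), of the same family, lay on the other side, at 259.6, 329.6, 406.5 and 480.7, and was 1.85-fold higher in the overexpressing line. CURT1A (AT4G01150) was at 6857, 4835, 5676 and 5691. TAPX, the thylakoid ascorbate peroxidase, was at 754, 598, 608 and 865. PIFI, named for a rise of chlorophyll fluorescence after illumination, was at 1678, 1177, 1217 and 1679. Thioredoxins y1 (TY1) and y2 (ty2) were at 100.8, 80.6, 91.3 and 92.7, and at 1394, 1067, 1523 and 1210. TAAC, a thylakoid ATP/ADP carrier, was at 198.7, 189.4, 247.0 and 171.0. In as2-1, CURT1D, TAAC and ty2 thus lay above wild type and the other 6 below it, all under 2-fold. Signals in both mutants lay below both other arrays for 6 of the 9 genes, where 26.1% of 6822 genes had that order.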
